A study of Rattus norvegicus with 12 samples.

Results

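Plasminogen activation was followed through 5 genes, chosen by symbol: Plau, Plat, Plaur, Serpine2 and Serpinb2. All 5 were found on 1 row each among the 30957 genes of the table, and all 5 were among the 12360 genes with enough counts to be tested. The libraries are messenger RNA of rat Schwann cells in 4 groups of 3 libraries. One group is Schwann cells alone, titled Rsc96 and taken as RSC96, an immortalised line from rat nerve. A second group, MDM, had been cultured together with monocyte-derived macrophages. In the other groups the partners were tumour-associated macrophages (TAM), induced by BxPC-3 (BxTAM) or by MIA PaCa-2 (MiaTAM), both human lines of pancreatic cancer. The labels give no genetic change for any group, and no length of co-culture, species of macrophage or means of induction. They do not say whether replicate libraries are separate cultures, so each p-value measures the spread between these libraries, which may be technical.

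Plasminogen is a circulating zymogen that is cut to plasmin, a broad protease that dissolves fibrin and attacks other matrix proteins. The cut is made by urokinase (uPA, from Plau), which is held at the cell surface by its receptor uPAR (from Plaur), or by tissue plasminogen activator (tPA, from Plat), which works best on fibrin. Serpins, which trap proteases in an irreversible complex, hold both activators in check. Serpine2 encodes protease nexin-1, a glia-derived inhibitor of thrombin and of both activators, and Serpinb2 encodes plasminogen activator inhibitor 2, an inhibitor of urokinase that stays largely inside the cell. In peripheral nerve the system is known from injury, where Schwann cells make plasminogen activators and fibrin is cleared before axons regrow. In tumours, urokinase and its receptor are known for their part in invasion.

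The start regions of 4 of the 5 genes are shown because the members differ in the letters before their starts. They are the 250 bases before the annotated transcript start, 5′ to 3′ on the gene's own strand, from RefSeq on the build GRCr8, which is not the build of the expression table. The table of start regions used here held no entry for Plat. Capitals mark matches to 5 motifs searched on both strands. The AP-1 motif was written TGANTCA, where N is any base, and the cyclic AMP response element (CRE) was TGACGTCA. The Sp1 motif was written GGGCGG. For the TATA box the letters TATAAA were searched, and an NF-kappaB decamer was the fifth motif.
Plau: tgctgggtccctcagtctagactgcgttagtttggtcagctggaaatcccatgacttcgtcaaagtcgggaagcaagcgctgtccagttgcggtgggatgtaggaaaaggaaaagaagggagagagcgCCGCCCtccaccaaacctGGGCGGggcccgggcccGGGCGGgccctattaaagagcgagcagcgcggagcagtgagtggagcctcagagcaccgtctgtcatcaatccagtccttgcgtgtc
Plaur: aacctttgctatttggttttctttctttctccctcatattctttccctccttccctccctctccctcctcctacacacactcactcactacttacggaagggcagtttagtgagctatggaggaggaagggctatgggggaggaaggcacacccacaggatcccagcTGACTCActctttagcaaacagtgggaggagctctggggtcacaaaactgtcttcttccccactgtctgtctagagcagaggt
Serpine2: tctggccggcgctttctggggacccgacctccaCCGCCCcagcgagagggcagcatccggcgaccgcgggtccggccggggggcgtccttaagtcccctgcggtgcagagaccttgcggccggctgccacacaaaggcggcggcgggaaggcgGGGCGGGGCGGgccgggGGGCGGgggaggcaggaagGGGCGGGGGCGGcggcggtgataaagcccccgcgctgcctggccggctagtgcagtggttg
Serpinb2: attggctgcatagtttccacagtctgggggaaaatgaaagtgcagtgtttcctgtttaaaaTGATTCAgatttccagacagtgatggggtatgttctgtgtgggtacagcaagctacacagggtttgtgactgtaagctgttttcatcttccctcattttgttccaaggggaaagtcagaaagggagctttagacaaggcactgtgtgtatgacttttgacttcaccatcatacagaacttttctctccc
These windows lie at chr15:3511988-3512237 (minus strand) for Plau, chr1:89181113-89181362 (plus strand) for Plaur, chr9:88637203-88637452 (minus strand) for Serpine2 and chr13:24055771-24056020 (plus strand) for Serpinb2. Plaur and Serpinb2 each hold 1 match to TGANTCA, at -83 to -77 and at -189 to -183 from the start. That motif stands in 6.34% of the 33469 RefSeq windows of the same length. Plau holds 3 matches to GGGCGG or its reverse complement and Serpine2 holds 6, of which the pair at -97 and -92 overlap by 1 base. This motif is common, with a match in 30.5% of all windows. The CRE, NF-kappaB and TATA motifs as written, found in 1.59%, 1.08% and 12.9% of all windows, are not in these letters of the 4 genes. Shorter or variant forms of the motifs were not searched. Guanine and cytosine make up 76.8% of the Serpine2 window, which is more than in 97.6% of all windows, and 60.0%, 51.2% and 43.2% of those of Plau, Plaur and Serpinb2. A match is a description of the letters and was not measured as a binding site.

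The libraries held 16555215 to 21506669 counts each. Levels of 1 gene are given as CPM, the gene's counts scaled to library size with TMM factors, edgeR's correction for composition, as mean ± SD over 3 libraries. Levels are compared between genes only per kilobase of gene length. A change is given on the log2 scale with its standard error, from edgeR's quasi-likelihood test on all 12 libraries. A gene was called where its p, adjusted by Benjamini-Hochberg over all 12360 genes, was under 0.05. These samples differed widely, and 65.1% of all tested genes were called between MDM co-culture and cells alone, so a call by itself is common and the sizes matter more. In bulk RNA, a change in the share of cells of a type and a change in RNA per cell cannot be told apart.

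Plasminogen activator transcripts were low in cells alone beside those of the receptor and the inhibitors. Per kilobase, Serpine2 stood highest at 76.4 ± 1.61 CPM (n = 3), above 91.0% of tested genes. Next came Plaur at 63.7 ± 3.29 CPM, Serpinb2 at 40.7 ± 3.19 CPM and Plau, above 68.2% of tested genes, at 22.3 ± 1.14 CPM. Plat stood far below them at 3.15 ± 0.238 CPM per kilobase, above 22.6% of tested genes. In co-culture the order per kilobase kept Serpine2 first and Plat last in MDM and BxTAM. In MiaTAM, Plaur stood first, at 71.1 ± 2.60 CPM against 66.2 ± 0.955 CPM for Serpine2. Plat reached 11.05 ± 0.119 CPM per kilobase in MDM co-culture, above 49.4% of tested genes.

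**Figure D1:**
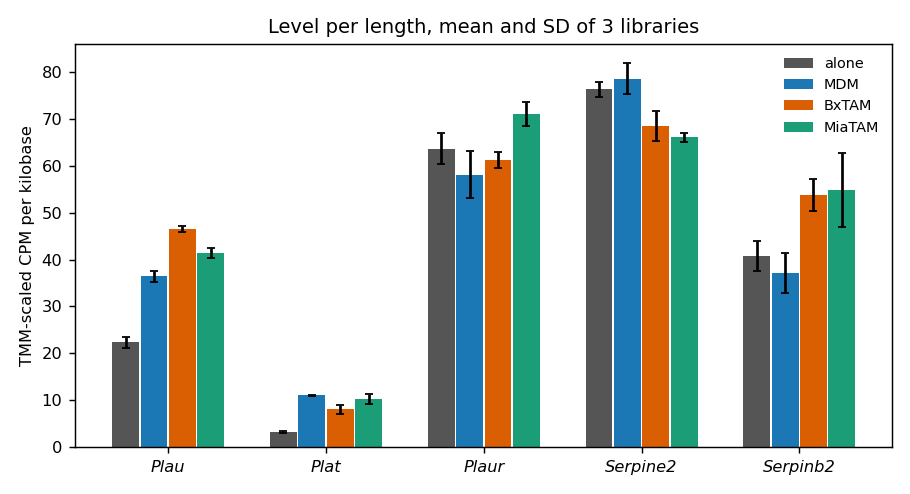
TMM-scaled CPM per kilobase (vertical axis) of the 5 genes in the 4 groups. Bars are means and error bars SDs of 3 libraries. Plat is the lowest of the 5 in every group, and Plau goes from 22.3 CPM per kilobase alone to 46.6 in BxTAM.

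Plau, the urokinase gene, rose in every co-culture. It lies on chromosome 15, 3644769 to 3650819 of Rnor_6.0. Cells alone had 42.1, 43.9 and 39.6 CPM, MDM co-culture had 68.3, 70.5 and 66.3 CPM, BxTAM co-culture had 86.0, 87.8 and 88.5 CPM and MiaTAM co-culture had 79.8, 76.0 and 77.0 CPM. The 4 groups did not overlap, with cells alone lowest, then MDM, then MiaTAM, then BxTAM. Against cells alone Plau rose 1.63-fold with MDM (0.71 ± 0.05, adjusted p = 7.7e-11), 2.09-fold with BxTAM (1.06 ± 0.05, adjusted p = 1.1e-13) and 1.85-fold with MiaTAM (0.89 ± 0.05, adjusted p = 1.9e-12) by edgeR's quasi-likelihood test. In BxTAM the rise was larger in size than the change of 93.2% of tested genes. Each step of the order also passed the test: BxTAM was above MDM by 0.36 ± 0.05 (adjusted p = 4.3e-06), MiaTAM above MDM by 0.18 ± 0.05 (adjusted p = 0.00314) and MiaTAM below BxTAM by -0.17 ± 0.05 (adjusted p = 0.00975).

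Plat, the tPA gene, made the largest relative move of the 5. It lies on chromosome 16, 74098260 to 74122889 of Rnor_6.0. The libraries had 8.18, 7.35 and 8.52 CPM alone, 28.1, 27.8 and 28.4 CPM with MDM, 18.4, 19.8 and 22.8 CPM with BxTAM and 28.7, 23.3 and 25.5 CPM with MiaTAM. All 9 co-culture libraries were above all 3 libraries of cells alone, and the MDM libraries overlapped those of MiaTAM but not those of BxTAM. With MDM it rose 3.51-fold (1.81 ± 0.10, edgeR adjusted p = 1.3e-12), which placed it 161st of 12360 genes by rise. The rise was 2.54-fold with BxTAM (1.34 ± 0.10, edgeR adjusted p = 3.0e-10) and 3.23-fold with MiaTAM (1.69 ± 0.10, edgeR adjusted p = 4.1e-12). Unlike Plau, Plat was lower with BxTAM than with MDM (-0.46 ± 0.08, edgeR adjusted p = 2.1e-04) and higher with MiaTAM than with BxTAM (0.35 ± 0.08, adjusted p = 0.00559). MiaTAM and MDM were not told apart (-0.12 ± 0.08, edgeR adjusted p = 0.268), with a 95% interval of the ratio from 0.820 to 1.04.

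The balance of both activators shifted between groups. Per kilobase, the Plau level was 7.12 ± 0.906 times that of Plat in cells alone, 3.30 ± 0.139 times with MDM, 5.86 ± 0.550 times with BxTAM and 4.09 ± 0.323 times with MiaTAM (n = 3 each). The ratio was lowest in the MDM libraries, which overlapped no other group, while BxTAM and cells alone overlapped. Within the same libraries, the Plau level per kilobase was 0.292 ± 0.0154 of the Serpine2 level alone, 0.464 ± 0.0156 with MDM, 0.681 ± 0.0401 with BxTAM and 0.625 ± 0.0231 with MiaTAM. No 2 groups overlapped in that ratio of urokinase to nexin-1 transcripts. These ratios describe transcript levels and were not tested.

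**Figure D2:**
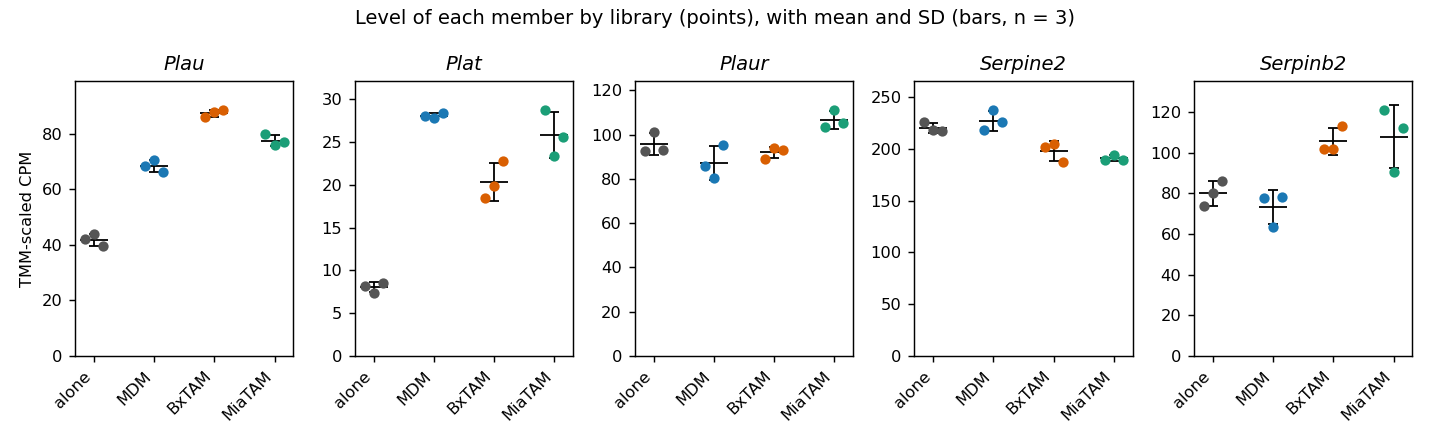
TMM-scaled CPM (vertical axes, each from 0) of each gene in the 12 libraries. Points are libraries, horizontal ticks group means and error bars SDs of 3 libraries. Plau and Plat lie above cells alone in all 9 co-culture libraries, and Serpine2 and Serpinb2 separate both TAM co-cultures from MDM in opposite directions.

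Plaur, the urokinase receptor gene, moved little. It lies on chromosome 1, 81328183 to 81344708 of Rnor_6.0. Cells alone had 92.5, 101 and 93.0 CPM, MDM co-culture 85.6, 80.5 and 95.4 CPM, BxTAM co-culture 89.1, 93.9 and 92.9 CPM and MiaTAM co-culture 103, 111 and 105 CPM. Only the MiaTAM libraries stood apart, above all 9 others, while the other 3 groups overlapped one another. MiaTAM was higher than MDM by 0.29 ± 0.05 (edgeR adjusted p = 2.9e-04), than BxTAM by 0.21 ± 0.05 (adjusted p = 0.00831) and than cells alone by 0.16 ± 0.05 (adjusted p = 0.0168). The difference from cells alone missed the threshold without MiaTAM library 2 (0.13 ± 0.06, edgeR adjusted p = 0.0671) and in limma-trend on log2(FPKM + 1) with all libraries (0.14 ± 0.06, adjusted p = 0.0507). The change with MDM against cells alone was -0.13 ± 0.05 (edgeR adjusted p = 0.0429), a call that ended under 5 of 8 other settings and without any 1 of 6 libraries. Without MDM library 2 it was -0.08 ± 0.06 (edgeR adjusted p = 0.254), and without library 2 of cells alone -0.08 ± 0.06 (adjusted p = 0.260). BxTAM was not told apart from cells alone (-0.06 ± 0.05, edgeR adjusted p = 0.391), with a 95% interval of the ratio from 0.888 to 1.04. BxTAM against MDM also missed the threshold (0.07 ± 0.06, edgeR adjusted p = 0.321), but passed without MDM library 3 (0.15 ± 0.05, adjusted p = 0.0464).

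Serpine2, the gene of protease nexin-1, was lower with both kinds of TAM and close to its level alone with MDM. It lies on chromosome 9, 85560863 to 85626094 of Rnor_6.0. The libraries had 226, 218 and 218 CPM alone, 219, 237 and 226 CPM with MDM, 202, 205 and 187 CPM with BxTAM and 189.6, 194 and 189.7 CPM with MiaTAM. All 6 TAM co-culture libraries lay below all 6 others. The falls were small: with MiaTAM the change was -0.25 ± 0.04 against MDM (edgeR adjusted p = 6.8e-05) and -0.21 ± 0.04 against cells alone (adjusted p = 2.0e-04). With BxTAM it was -0.20 ± 0.04 against MDM (edgeR adjusted p = 8.8e-04) and -0.15 ± 0.04 against cells alone (adjusted p = 0.00304). A change of that last size or less was seen in 31.2% of tested genes. MDM and cells alone were not told apart (0.04 ± 0.04, edgeR adjusted p = 0.368), with a 95% interval of the ratio from 0.971 to 1.09. With upper-quartile scaling that difference passed (0.10 ± 0.04, edgeR adjusted p = 0.0357). MiaTAM and BxTAM were not told apart either (-0.05 ± 0.04, edgeR adjusted p = 0.396), with an interval from 0.908 to 1.02.

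Serpinb2, the gene of plasminogen activator inhibitor 2, went the other way. It lies on chromosome 13, 27449934 to 27463010 of Rnor_6.0. Cells alone had 73.7, 80.1 and 86.2 CPM, MDM co-culture 77.5, 63.4 and 78.4 CPM, BxTAM co-culture 101.7, 101.7 and 113 CPM and MiaTAM co-culture 121, 90.7 and 112 CPM. All 6 TAM libraries lay above all 6 others, although MiaTAM library 2, at 90.7 CPM, stood only just above the highest library of cells alone. Against MDM, Serpinb2 rose 1.44-fold with BxTAM (0.53 ± 0.09, edgeR adjusted p = 8.8e-05) and 1.48-fold with MiaTAM (0.56 ± 0.09, adjusted p = 3.5e-05). Against cells alone the rises were 1.32-fold (0.40 ± 0.09, edgeR adjusted p = 5.1e-04) and 1.35-fold (0.43 ± 0.09, adjusted p = 2.0e-04). The gene varied more within groups than the other serpin, with an SD of 14.4% of the mean in MiaTAM against 1.44% for Serpine2. MDM and cells alone were not told apart (-0.13 ± 0.09, edgeR adjusted p = 0.210), with a 95% interval of the ratio from 0.804 to 1.04. MiaTAM and BxTAM were not told apart (0.03 ± 0.09, edgeR adjusted p = 0.818), with an interval from 0.904 to 1.16.

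Counted over the 5 genes, MDM co-culture differed from cells alone in 3, with Plau and Plat higher and Plaur lower, where 65.1% of all tested genes were called. BxTAM differed from cells alone in 4, with Plau, Plat and Serpinb2 higher and Serpine2 lower, against 60.9% of tested genes. MiaTAM differed in all 5, with 4 higher and Serpine2 lower, against 65.1%. These 3 comparisons share the libraries of cells alone. The Plaur call was lost under most alternatives with MDM and under some with MiaTAM. Over the alternatives the number of genes called ran from 2 to 3 with MDM and from 4 to 5 with MiaTAM. Against MDM, BxTAM differed in 4 genes, where 34.7% of tested genes were called: 2 were higher (17.4% of all) and 2 lower (17.3%). MiaTAM differed from MDM in 4, where 41.0% were called: 3 were higher (19.8% of all) and 1 lower (21.1%). Those comparisons share the MDM libraries. MiaTAM differed from BxTAM in 3 genes, Plau, Plat and Plaur, where 24.2% of tested genes were called. The median change of the 5 genes was 0.04 with MDM, 0.40 with BxTAM and 0.43 with MiaTAM against cells alone, beside -0.01, 0.00 and -0.01 over all tested genes. Changes of 2-fold or more were rarer, called in 8.46%, 7.56% and 8.93% of tested genes in those 3 comparisons, and of the 5 genes only Plat in each, and Plau in BxTAM, were among them. Between co-cultures such changes were called in 1.75% (BxTAM against MDM), 1.59% (MiaTAM against MDM) and 0.267% (MiaTAM against BxTAM) of tested genes, and in none of the 5.

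**Figure D3:**
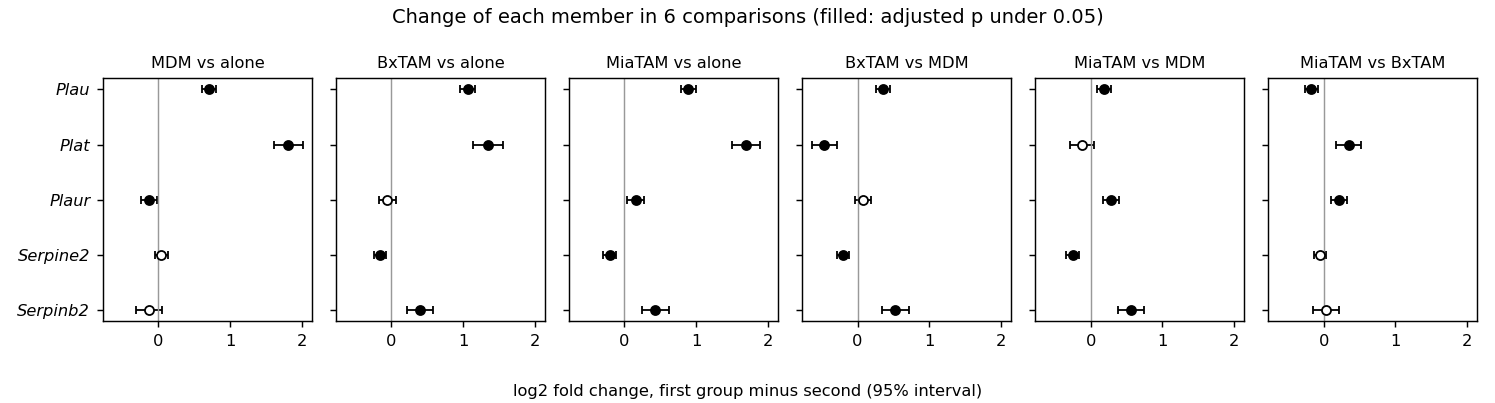
Log2 fold change (horizontal axis, first group minus second) of the 5 genes in the 6 comparisons. Points are estimates, bars 95% intervals, and filled points have an adjusted p under 0.05. Plat is farthest from 0 in each comparison with cells alone, and the opposite signs of Serpine2 and Serpinb2 are seen in both comparisons of TAM with MDM.

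RNA of the macrophages was looked for, since transcripts of this system are also known from macrophages. The markers are rat genes counted on the rat build Rnor_6.0. The labels do not give the species of macrophage, so low marker counts may not show RNA of macrophages from another species. Of 26 macrophage markers, 20 stayed under 1 CPM in every group. Ptprc, the gene of the pan-leukocyte antigen CD45, had 3 counts in all 12 libraries together, and Tyrobp and C1qa had 0. The summed level of the 26 markers was still higher in co-culture: 34.3 to 36.8 CPM alone, 71.2 to 77.7 CPM with MDM, 68.0 to 68.3 CPM with BxTAM and 78.4 to 82.1 CPM with MiaTAM. Of the 7 tested macrophage markers, 6 rose in each co-culture against cells alone. Over all tested genes, 32.0% with MDM, 30.0% with BxTAM and 31.4% with MiaTAM were called higher, and 33.1%, 30.9% and 33.7% lower. Itgax, an integrin gene, was the largest part of the summed macrophage markers and of their rise with MDM. It stood at 17.2 CPM alone and 46.2 CPM with MDM. With MiaTAM, Cd68 rose 4.48-fold from 0.416 CPM, Lcp1 2.84-fold from 1.56 CPM, Csf1r 2.77-fold from 3.34 CPM and Coro1a 1.98-fold from 6.99 CPM. The part of these markers in the changes of the 5 genes was not tested. Of the Schwann markers, Sox10 had 1 count and S100b 43 counts in all libraries, so both of these defining transcripts were near 0. Other Schwann markers were present: Pmp22 stood at 75.3 to 93.3 CPM per group, Dhh at 7.73 to 20.7 CPM and Erbb3 at 7.14 to 15.2 CPM. Pmp22, at 93.3 CPM alone and 75.3 CPM with MDM, made up most of the sum of the 12 Schwann markers in the table. That sum was 117 to 122 CPM alone, 123 to 125 CPM with MDM, 121 to 128 CPM with BxTAM and 136 to 140.0 CPM with MiaTAM. Of 7 Schwann markers tested, 4 rose and 2 fell with MDM, 3 and 2 with BxTAM, and 4 and 2 with MiaTAM. Of 8 fibroblast markers, 5 stayed under 1 CPM in every group, and 4 of these had 0 counts in all libraries. All 3 tested rose with MDM, and 2 of 3 with each kind of TAM. The sizes with MDM were uneven, at 0.24 ± 0.04 for Thy1, 0.19 ± 0.05 for Pdgfra and 2.12 ± 0.07 for Col1a1. Among them Col1a1, a collagen gene, stood at 16.9 CPM alone, 73.7 CPM with MDM, 50.7 CPM with BxTAM and 74.96 CPM with MiaTAM, and its part in the changes of Plat was not tested. Counts from the mitochondrial chromosome were 5.03 to 5.54% of the total alone, 5.52 to 5.92% with MDM, 5.86 to 5.94% with BxTAM and 6.15 to 6.95% with MiaTAM, and their part in the results was not tested.

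Other genes of the system were read from 7 lists. Their counts cover the 73 genes reported from them, of which 48 were tested. Plasminogen itself was close to absent as a transcript, with 4 counts of Plg in all 12 libraries, and Vtn, the gene of the uPAR ligand vitronectin, had 0. Of the 48 tested genes, 30 were higher and 9 lower with MDM against cells alone, with a median of 0.36. With BxTAM 27 were higher and 9 lower, and with MiaTAM 28 were higher and 8 lower. Over all tested genes, the shares called higher and lower were 32.0% and 33.1% with MDM, 30.0% and 30.9% with BxTAM, and 31.4% and 33.7% with MiaTAM. Against MDM, 11 of the 48 genes were higher and 14 lower with BxTAM, and 13 and 13 with MiaTAM. The shares of all tested genes called higher and lower were 17.4% and 17.3% with BxTAM, and 19.8% and 21.1% with MiaTAM. Some single lists were less even. Of the AP-1 and ETS factors, 1 was higher and 5 lower with BxTAM, and 0 and 3 with MiaTAM. Of the substrates of plasmin and the activators, 3 were higher and 2 lower with BxTAM, and 6 and 2 with MiaTAM. The plasminogen receptors had 2 higher and 2 lower in each.

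Of the 6 genes reported from the list of plasminogen and its inhibitors, Serpini1 had enough counts to be tested. It encodes neuroserpin, a tPA inhibitor of the nervous system. It went from 44.9 ± 3.58 CPM alone to 74.5 ± 3.18 CPM with MDM (0.73 ± 0.07), 65.8 ± 1.58 CPM with BxTAM and 64.0 ± 6.45 CPM with MiaTAM, and was called in all 3 comparisons with cells alone. It was also lower in both TAM co-cultures than with MDM (-0.18 ± 0.06 and -0.22 ± 0.06), the direction that Serpine2 had. Of the 36 serpin genes reported beside Serpine2 and Serpinb2, 15 had 0 counts and 8 were tested. With MiaTAM against cells alone, 5 of those 8 rose and 3 fell, beside 31.4% and 33.7% of all tested genes. Serpinb1a, an inhibitor of neutrophil proteases, rose 2.71-fold with MiaTAM, from 32.9 ± 2.93 to 88.9 ± 4.38 CPM, and Serpinf1, the gene of pigment epithelium-derived factor, rose 2.50-fold from 2.21 ± 0.0467 CPM.

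Proteases that can cut the urokinase zymogen split by level. Of 7 genes, 3 were tested, among them the lysosomal cathepsin genes Ctsb and Ctsl, which both rose in all 3 co-cultures. Ctsb went from 872 ± 5.74 CPM alone to 1477 ± 40.8 CPM with MiaTAM (0.76 ± 0.04). Klkb1, the plasma kallikrein gene, was scarce at 0.881 to 1.85 CPM per group and was lower with MiaTAM than with BxTAM (-1.05 ± 0.28, edgeR adjusted p = 0.0102).

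In the small list of genes for cell-surface plasminogen receptors, more fell than rose. Of 7 tested, 1 rose and 4 fell with MDM against cells alone, 0 and 4 with BxTAM, and 2 and 4 with MiaTAM, with medians of -0.23, -0.34 and -0.23. The shares of all tested genes called lower were 33.1%, 30.9% and 33.7%, and those called higher 32.0%, 30.0% and 31.4%. S100a10, the partner of annexin A2 in binding plasminogen, went from 787 ± 28.2 CPM alone to 507 ± 10.6 CPM with MDM (-0.63 ± 0.04). Plgrkt, a plasminogen receptor of the plasma membrane, went from 12.7 ± 1.42 to 7.47 ± 0.290 CPM (-0.77 ± 0.11). Both fell in all 3 co-cultures. Krt8, a keratin that also binds plasminogen and that stands on the list of epithelial markers, was the 1 that rose with MDM, from 2.93 ± 0.325 to 8.22 ± 0.741 CPM.

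Receptors that clear activator and inhibitor complexes, and partners of uPAR, were mostly higher in co-culture. In the clearance list, 4 of 6 tested genes rose and 1 fell in each of the 3 comparisons with cells alone. Sort1, the gene of sortilin, changed by 0.90 ± 0.05 with MDM, and Lrpap1, the gene of a chaperone of clearance receptors, by 0.37 ± 0.04. Among uPAR partners, 5 of 7 tested genes rose and 1 fell with MDM, 5 and 0 with BxTAM, and 4 and 0 with MiaTAM. For both lists, the shares of all tested genes called higher were 32.0% with MDM, 30.0% with BxTAM and 31.4% with MiaTAM. Mrc2, a collagen receptor that associates with uPAR, rose from 207 ± 1.27 CPM alone to 327 ± 3.52 CPM with MDM (0.66 ± 0.04), and rose as well with BxTAM (0.75 ± 0.04) and MiaTAM (0.71 ± 0.04). The integrin genes Itgb5 and Itga5 changed by 0.86 ± 0.04 and 0.60 ± 0.04 with MDM.

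Substrates of plasmin and of the activators included the matrix metalloproteinases, whose zymogens plasmin can activate. Of 12 tested, 10 rose and 0 fell with MDM against cells alone, and 9 rose and 0 fell with each kind of TAM. Among all tested genes, 32.0% rose with MDM, 30.0% with BxTAM and 31.4% with MiaTAM. Mmp13, a collagenase, stood at 149 ± 14.0 CPM alone, 535 ± 32.5 CPM with MDM, 262 ± 10.5 CPM with BxTAM and 215 ± 23.0 CPM with MiaTAM. Its level was highest with MDM. Mmp9, a gelatinase, was scarce at 1.81 ± 0.845 CPM alone and rose to 5.06 to 6.67 CPM in co-culture. Mmp10, a stromelysin, was highest with MiaTAM, at 28.7 ± 1.54 CPM against 12.4 ± 1.92 CPM alone (1.22 ± 0.10).

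Transcription factors of the AP-1 and ETS families, known regulators of Plau, moved in both directions. Of 12 tested, 7 rose and 3 fell with MDM against cells alone, 6 and 4 with BxTAM, and 6 and 3 with MiaTAM. Among all tested genes, 32.0% rose and 33.1% fell with MDM, 30.0% and 30.9% with BxTAM, and 31.4% and 33.7% with MiaTAM. Jund rose in all 3, from 42.2 ± 2.53 CPM to 89.5 ± 3.60 CPM with MDM, and Fosb changed by 1.19 ± 0.11 with MDM. Fosl1 fell in all 3, from 234 ± 4.12 CPM to 153 ± 13.3 CPM with MDM.

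**Figure D4:**
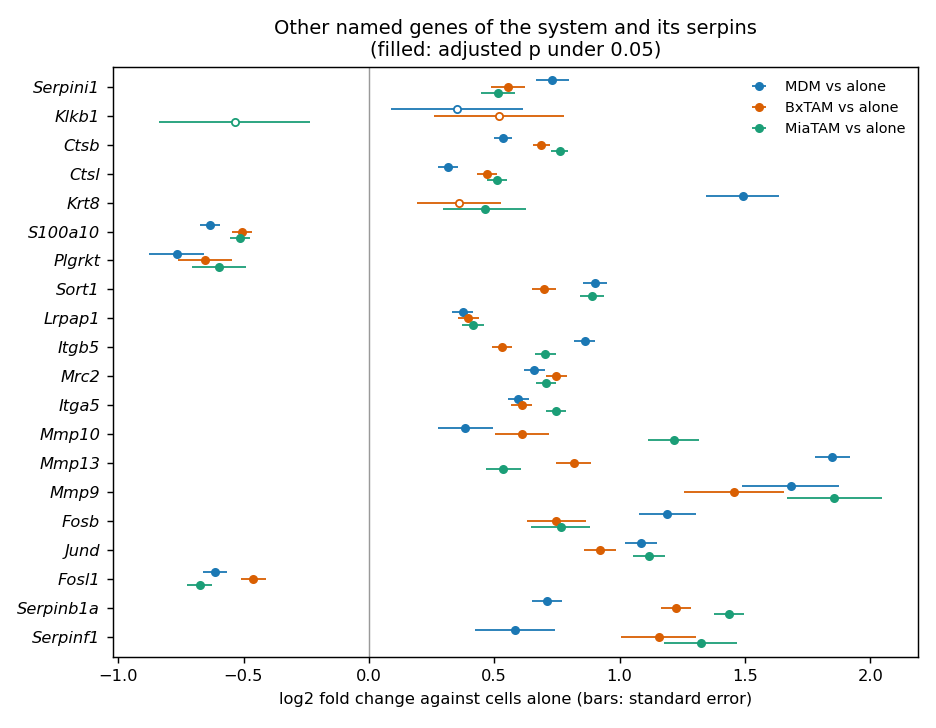
Log2 fold change against cells alone (horizontal axis) of other named genes of the system and of 2 further serpins, in the 3 co-cultures. Bars are standard errors from 3 libraries against 3, and filled points have an adjusted p under 0.05. S100a10, Plgrkt and Fosl1 lie below 0 in all 3 co-cultures, and Mmp13 is farthest right with MDM.

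Genes with the most similar pattern were sought over the 12 libraries by Pearson's r of log2 CPM, among tested genes whose group means spanned at least 2-fold. The libraries fall into 4 groups that these genes share, so r describes likeness of group levels and carries no test. Plaur, Serpine2 and Serpinb2 themselves spanned 0.292, 0.249 and 0.557 on the log2 scale, so genes that moved as little were not searched. Closest to Plau were Col20a1, a collagen gene (r = 0.990), Manba, a lysosomal mannosidase gene (r = 0.985), and RT1-Bb, of the rat MHC (r = 0.984). Closest to Plat were Ftl1l1, a ferritin light chain copy (r = 0.986), Olfm2 (r = 0.986) and Chst12, a sulfotransferase gene (r = 0.984). RT1-Bb and Ftl1l1 belong to families that can share reads. For Plaur, which changed little, likeness was weaker, with Wnt4 first (r = 0.854), then Trpm1 (r = 0.823) and Foxn1 (r = 0.767). Serpine2 was closest to the chemokine gene Cxcl10 (r = 0.913) and to the matricellular genes Ctgf (r = 0.906) and Cyr61 (r = 0.905). Closest to Serpinb2 were Thbd, the thrombomodulin gene (r = 0.90), Ptgs2, the inducible cyclooxygenase gene (r = 0.888), and Il1rl1, the receptor gene of interleukin 33 (r = 0.878). Some of the genes named here were scarce. Group means were 0.689 to 1.65 CPM for Thbd, 1.36 to 3.09 for Foxn1, 0.980 to 4.33 for RT1-Bb and 0.946 to 6.57 for Olfm2.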

How the data were processed

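The authors deposited 1 table with raw counts per gene and with FPKM values for each of 12 libraries, per the file headers. The kit was a stranded one for messenger RNA, per the labels' protocols. The tools named are HISAT2, StringTie 1.3.0 and CASAVA, with the build Rnor_6.0, per the submitters' processing notes. The sources used here do not give the counting tool, annotation release or strand setting. No other gene of the table overlaps the 5 members. Gene lengths were taken from the ratio of deposited count to deposited FPKM.

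Counts were tested in edgeR 4.0.16 (R 4.3.3) with filterByExpr, TMM factors of 0.980 to 1.01 and 1 quasi-likelihood fit of all 12 libraries, with 8 residual degrees of freedom, and the analysis was tested on simulated data. The standard error is the log2 change over the square root of F. Replicates were checked for duplicates and none was found. Alternatives used DESeq2 1.42.0, limma 3.58.1 on log2(FPKM + 1), other scalings and filters, and each library left out.

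Members, lists and tests were chosen with earlier results of these data known. From each list the text names genes called at 2-fold or more in any comparison, filled up to 3 by the smallest p with MDM against cells alone, and further serpins called at 2-fold with at least 1 CPM. Likeness was sought over genes of at least 1 CPM, 3 per member, and clone or locus names were left out, a step added after the data were seen. Motifs were chosen with the sequences in view. One further tested serpin gene, an inhibitor of this system, is not reported here. It was taken off the list of plasminogen and its inhibitors and out of the serpin family after its counts had been seen, because it was taken to be an item that is not to be reported. The counts for that list, for all lists together and for the family leave it out, and so depart from the rule that counts every serpin. A gene of the clearance list that the naming rule picks is counted but not named.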

Additional observations from a re-analysis of the deposited data

How the results depend on the processing

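Of 600 values of the log2 change of a member under 20 alternatives, 584 kept their direction and their side of the threshold, 13 fell below it, 2 passed it and 1 turned its direction. The changes of call concern Plaur in 3 comparisons and Serpine2 in 1, and stand beside those genes above. Serpinb2 between MiaTAM and BxTAM, not called, ran from -0.06 to 0.14 with 1 library left out, and was -0.0571 without MiaTAM library 1. The number of members called stayed within 1.5 times in all 120 values, a margin that a change of 1 member does not leave. It ran from 2 to 3 for MDM against cells alone. For MiaTAM against cells alone and for BxTAM against MDM it ran from 4 to 5. In the other comparisons it did not change. The number of genes called between MiaTAM and BxTAM ran from 1933 to 3113 with 1 library left out, against 2997 with all, and was 1978, 1976 and 1933 without BxTAM library 2, BxTAM library 3 and MiaTAM library 2. The cause was not tested. With 1 library left out, the 2 remaining of its group are assumed to vary like the other groups. The replicate block changed no call of a member, with 3 called for MDM against cells alone, 4 for BxTAM, 5 for MiaTAM, 4 for each TAM against MDM and 3 for MiaTAM against BxTAM. Genes called under the block were 8046, 7496, 8021, 4275, 5059 and 2993 in that order. Libraries with the same number did not deviate together: 0 of 18 correlations were over 0.1, and 0 of 12 libraries correlated best with their own number. Depth limits Klkb1 and Mmp9, which had 48 and 103 counts in their lowest groups.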
